A study of Mus musculus with 3 samples.

Results

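Aminoacyl-tRNA synthetases are the enzymes that attach each amino acid to its matching tRNA. The genes described here were taken from the deposited expression table by symbol. They are the rows named for a single-letter amino acid code followed by ars, with or without a final 1 or 2, together with Eprs, Farsa, Farsb, Tarsl2 and the scaffold genes Aimp1, Aimp2 and Eef1e1. Of 39377 rows, 38 are described here. Of these, 17 encode enzymes of the cytosol, 2 (Gars and Kars) encode enzymes that serve both the cytosol and the mitochondrion, 16 encode mitochondrial enzymes, and 3 encode scaffold proteins. Symbols ending in 2 are mitochondrial, with the exceptions of Aimp2 and Tarsl2. The cytosolic methionine and tryptophan enzyme genes, Mars and Wars, were not analysed here.

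The tissue was the hippocampus, with its cell types mixed, of C57BL/6 mice of genotype WT at postnatal day 14, measured by RNA-seq. The 3 libraries of total RNA formed 1 group, here called libraries 1, 2 and 3, so there was no condition to compare and every comparison was made between genes of the same library. Whether each library is a different animal is not labelled, so the p-values reflect sample-to-sample spread that may be technical. Values are FPKM (fragments scaled by transcript length and by library size), and ± gives the SD (n = 3 libraries).

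Depth, read from the spacing of the lowest FPKM values, was about 3690000, 4090000 and 6040000 fragments in libraries 1, 2 and 3. All 25 cell type markers that were checked were above 0 in all libraries. The neuronal ones, Snap25 among them, had means of 52.4 to 820 FPKM and the astrocyte ones 26.9 to 324 FPKM. Blood and choroid plexus markers were also present, and the choroid plexus gene Ttr differed between libraries, at 392, 1071 and 1296 FPKM. In bulk tissue, fewer cells of a type and less RNA per cell cannot be told apart.

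As background, most amino acids have a cytosolic enzyme and a separate mitochondrial one, both encoded in the nucleus. The enzymes fall into class I and class II by the fold of the catalytic domain. In the cytosol several of them are held with the Aimp1, Aimp2 and Eef1e1 proteins in a multisynthetase complex. Mitochondria use their own enzymes to translate the few proteins encoded by mitochondrial DNA, and mutations in synthetase genes of either kind are known causes of neuropathies, leukodystrophies and other disorders of the nervous system. Several cytosolic synthetase genes are known targets of ATF4, the transcription factor of the amino acid response, which binds DNA elements called CARE.

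The promoters of the members were therefore searched for the CARE core TGATGNAA, on both strands, from 250 bases before to 50 bases after the annotated start (RefSeq, GRCm38.p6). Promoters were found for 30 of the 38 genes and 5 of those 30 held the motif, 16.7%, beside 4.51% of 27025 genes in the promoter table and 2.66% of the 10432 that averaged 1 FPKM or more. The 5 were Aars, Gars, Iars, Tars and Yars, which were 5 of the 13 matched enzymes of the cytosol, Gars included. None of the 14 mitochondrial and none of the 3 scaffold promoters held it. A further 8 genes, Cars, Hars, Lars, Nars, Rars, Vars, Hars2 and Pars2, had no promoter in the table. A site of each is shown because it is what these 5 promoters share. The sites are written 5′ to 3′ on the strand of the gene, with the 8 matching bases in capitals, so TTNCATCA is the motif on the opposite strand.
Yars, chr4:129189895-129189924, plus strand: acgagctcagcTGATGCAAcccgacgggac
Gars, chr6:55037960-55037989, plus strand: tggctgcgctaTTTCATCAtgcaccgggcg
Aars, chr8:111033840-111033869, plus strand: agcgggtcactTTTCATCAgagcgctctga
Iars, chr13:49682126-49682155, plus strand: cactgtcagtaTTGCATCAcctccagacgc
Tars, chr15:11399655-11399684, minus strand: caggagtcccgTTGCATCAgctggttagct

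The sites lay close to the starts on which the promoter windows were placed. For Aars and Yars the gene as a whole begins upstream of that start, at chr8:111027778 and chr4:129189734. The motif ended 22 bases before the start in Gars and 7 before it in Tars. It began at base 4 after the start in Yars, base 8 in Iars and base 10 in Aars.

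A match of letters is a description and does not show binding. The 5 genes with the motif did not stand together in level: Iars and Tars were among the lowest cytosolic enzymes, at means of 6.80 and 9.50 FPKM, while Gars stood at 48.5 FPKM.

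All 38 genes were detected in every library, with a mean above 1 FPKM, and they spanned a wide range of levels. Sars, the serine enzyme gene, was the highest apart from Lars2, at 112, 76.1 and 87.9 FPKM in libraries 1, 2 and 3. The lowest was Mars2, the mitochondrial methionine enzyme gene, at 1.51, 1.72 and 1.31 FPKM. The lowest levels rested on few fragments, about 14, 19 and 21 for Mars2 and 19, 26 and 22 for Ears2. In the order of the 38 means, 32 of the 37 neighbouring pairs had overlapping library values, so most neighbours in that order did not differ beyond their spread.

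**Figure D1:**
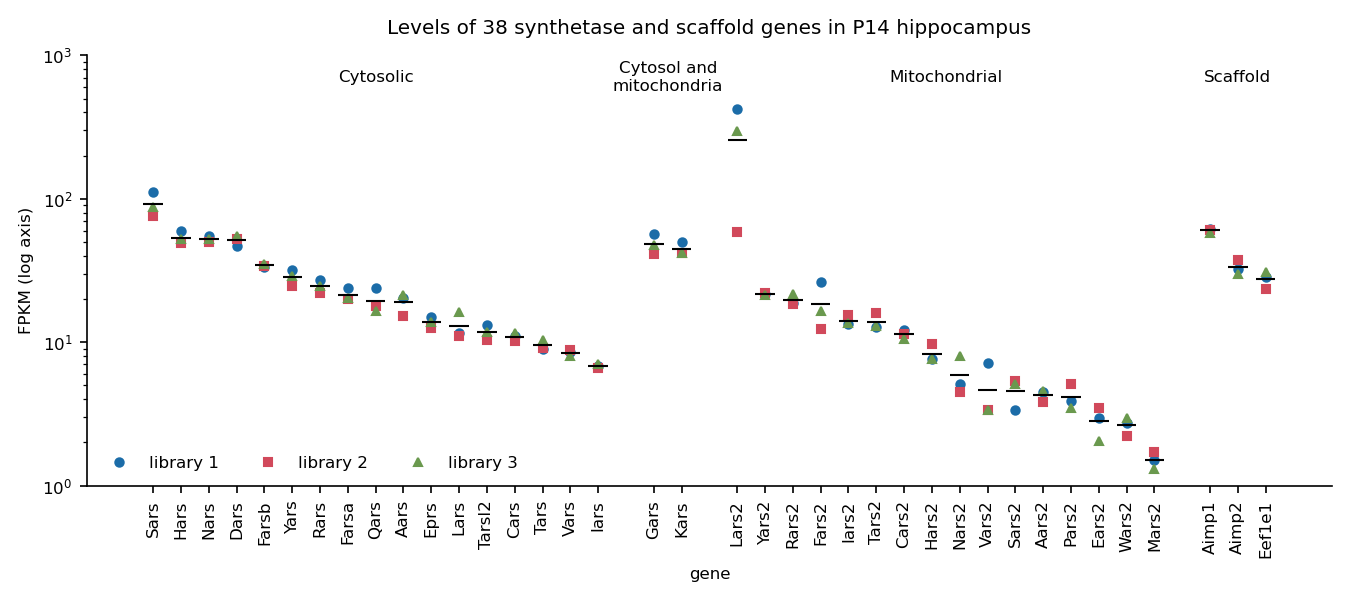
FPKM of the 38 genes on a log axis, with 1 symbol per library and a black line at the mean of the 3 libraries; genes are grouped by where their protein works and ordered by mean. The 17 cytosolic genes run from Sars at 92.1 to Iars at 6.80 FPKM, and Lars2 stands apart at 420, 58.6 and 294 FPKM.

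To place each gene among all others, its log2(FPKM + 1) was compared within each library with that of the median gene, which stood at 10.5, 10.3 and 10.2 FPKM. The test was limma's treat against a difference of at most 1 log2 unit, over the 13337 genes that averaged 1 FPKM or more, with p-values adjusted by Benjamini-Hochberg and a threshold of 0.05. The 1-unit margin was used because FPKM of different genes also differ through GC content and mappability. Without Lars2, 11 of 37 genes were higher than the median gene, 3 were lower and 23 were not called. Over all genes tested 26.0% were higher and 22.3% lower, so the share of higher members, 29.7%, was near that of all genes.

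The cytosolic enzymes, Gars and Kars included, made up most of the higher calls. Their median level was 24.0, 19.96 and 21.4 FPKM in libraries 1, 2 and 3. Of the 19, 8 were higher than the median gene (42.1%), none was lower (limma, also 0 at an unadjusted p under 0.05) and 11 were not called. Over all genes tested 26.0% were higher and 22.3% lower. Sars led them at 92.1 ± 18.5 FPKM, 3.02 log2 units above the median gene (SE 0.129, limma adjusted p = 8.99e-05). The other 7 were Hars, Nars, Dars, Gars, Kars, Farsb and Yars.

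Hars, the histidine enzyme gene, stood at 59.5, 48.9 and 52.1 FPKM. Nars, for asparagine, stood at 55.4, 50.3 and 52.1 FPKM, and Dars, for aspartate, at 46.9, 52.3 and 55.02 FPKM. The library values of these 3 genes overlapped, and they lay 2.21 to 2.26 log2 units above the median gene. The genes of the dual enzymes came next, with Gars, for glycine, at 56.4, 41.2 and 47.97 FPKM and Kars, for lysine, at 50.3, 41.6 and 41.9 FPKM. Yars, the tyrosine enzyme gene, at 32.0, 24.7 and 28.9 FPKM, was the weakest higher call among the enzymes (1.37 log2 units, SE 0.106, limma adjusted p = 0.0193). That call was lost without library 1 (adjusted p = 0.0766) or library 3 (adjusted p = 0.0804), and with the mean of all genes as the reference (adjusted p = 0.23).

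The remaining 11 cytosolic enzymes were not called. Of these, Rars lay 1.17 and Farsa 0.98 log2 units above the median gene, higher in 3 of 3 libraries, and both were called against a null of no difference (limma adjusted p = 0.00018 and 0.000318). Rars (arginine) had a mean of 24.6 ± 2.59 FPKM, Farsa (phenylalanine, alpha subunit) 21.4 ± 2.15, Qars (glutamine) 19.5 ± 4.03 FPKM. Aars (alanine) stood at 20.5, 15.2 and 21.4 FPKM. Eprs, which joins the glutamate and proline enzymes in 1 protein, stood at 13.8 ± 1.17 FPKM, Lars (leucine) at 13.0 ± 2.83, Tarsl2 at 11.7 ± 1.37 and Cars (cysteine) at 10.9 ± 0.660 FPKM. Tars (threonine) at 9.50 ± 0.758 FPKM, Vars (valine) at 8.45 ± 0.416 and Iars (isoleucine) at 6.80 ± 0.201 FPKM had means below the median gene, and none of the 3 was called. Against a null of no difference Iars and Vars were called lower (limma adjusted p = 0.00232 and 0.0337). Iars was also called lower when only genes of at least 5 FPKM were tested (limma adjusted p = 0.0122).

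Split by enzyme class, a grouping added after the values had been seen, the cytosolic class II genes had the higher levels. The median of the 11 class II genes was 46.9, 41.2 and 41.9 FPKM, with 7 called higher than the median gene (63.6%, beside 26.0% of all genes). Farsa and Farsb, the 2 subunits of 1 enzyme, are counted apart among them. The median of the 7 class I genes was 11.6, 11.1 and 16.2 FPKM, with Yars alone called higher. Eprs holds a domain of each class and was left out of both. Among the mitochondrial enzymes the order was not the same, with class I at 9.70, 7.43 and 6.96 FPKM (8 genes without Lars2) and class II at 5.12, 5.37 and 7.64 FPKM (7 genes). The library values of these mitochondrial medians overlapped between the classes.

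The 3 scaffold genes of the multisynthetase complex were all higher than the median gene, beside 26.0% of all genes. Aimp1, whose protein also gives rise to a secreted cytokine, stood at 61.5, 60.9 and 58.2 FPKM, 2.43 log2 units above it (SE 0.0848, limma adjusted p = 6.82e-05). Aimp2, the core scaffold of the complex, stood at 32.5, 37.3 and 30.1 FPKM. Eef1e1, whose protein also has a role in the DNA damage response, stood at 28.3, 23.3 and 30.7 FPKM. The call of Eef1e1 (limma adjusted p = 0.0397) was lost without library 1 or library 3 (adjusted p = 0.111 and 0.169), and with the mean of all genes as the reference (adjusted p = 0.428). Of the 7 enzyme genes of the complex measured (Dars, Eprs, Iars, Kars, Lars, Qars and Rars), Dars and Kars were called higher, 28.6% beside 26.0% of all genes. The means of the 7 ran from 6.80 to 51.4 FPKM, and those of Dars and Kars lay within the range of the scaffold genes.

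The mitochondrial enzymes, read without Lars2, had a lower median level than the cytosolic ones. Their median was 7.20, 5.37 and 7.64 FPKM, and the median of the cytosolic enzymes was 3.34, 3.72 and 2.79 times as high in the same libraries (mean 3.28 ± 0.464). None of the 15 was called higher than the median gene (limma, 0 at an unadjusted p under 0.05), 3 were called lower and 12 were not called, where 22.3% of all genes were lower, so the share of lower calls was near that of all genes. The 3 lower ones were Mars2 (-2.18 log2 units relative to the median gene, SE 0.0934, limma adjusted p = 0.000186), Wars2 for tryptophan at 2.71, 2.20 and 2.97 FPKM, and Ears2 for glutamate at 2.97, 3.5 and 2.03 FPKM. All 3 calls were lost with every gene above 0 tested (adjusted p = 0.149 for Mars2 and 1.0 for Wars2 and Ears2), and that of Ears2 also with its own variance (adjusted p = 0.0848). Vars2 was called lower without library 1 (adjusted p = 0.0326).

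The other mitochondrial genes filled the range up to the level of the middle cytosolic ones. Yars2 for tyrosine was the highest, with the smallest spread, at 21.7, 22.1 and 21.4 FPKM. Rars2 for arginine followed at 18.7, 18.6 and 21.5 FPKM, and Fars2 for phenylalanine at 26.4, 12.4 and 16.5 FPKM. Iars2, Tars2 and Cars2 had means of 14.1 ± 1.04, 13.9 ± 1.71 and 11.4 ± 0.820 FPKM. Hars2 and Nars2 lay at 8.32 ± 1.14 and 5.86 ± 1.83 FPKM. Vars2, Sars2, Aars2 and Pars2 had means between 4.16 and 4.64 FPKM, all near 1 log2 unit below the median gene, and were not called.

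Each mitochondrial gene was then compared with the cytosolic gene for the same amino acid, in the same kind of test with the cytosolic gene as the reference. In 13 pairs with both genes described, 6 mitochondrial genes were called lower than their partner by more than 1 log2 unit, none was called higher (also 0 at an unadjusted p under 0.05) and 7 were not called. Over the same fits 40.3% of all genes tested were called lower than the reference and 17.1% higher, so 6 of 13 was near the background. The pairs differed widely. The ratio of the cytosolic to the mitochondrial gene ran from 0.483 for isoleucine to 21.7 for serine, and the levels in the 13 pairs had a Spearman rho of 0.041, a description across genes of the same libraries.

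**Figure D2:**
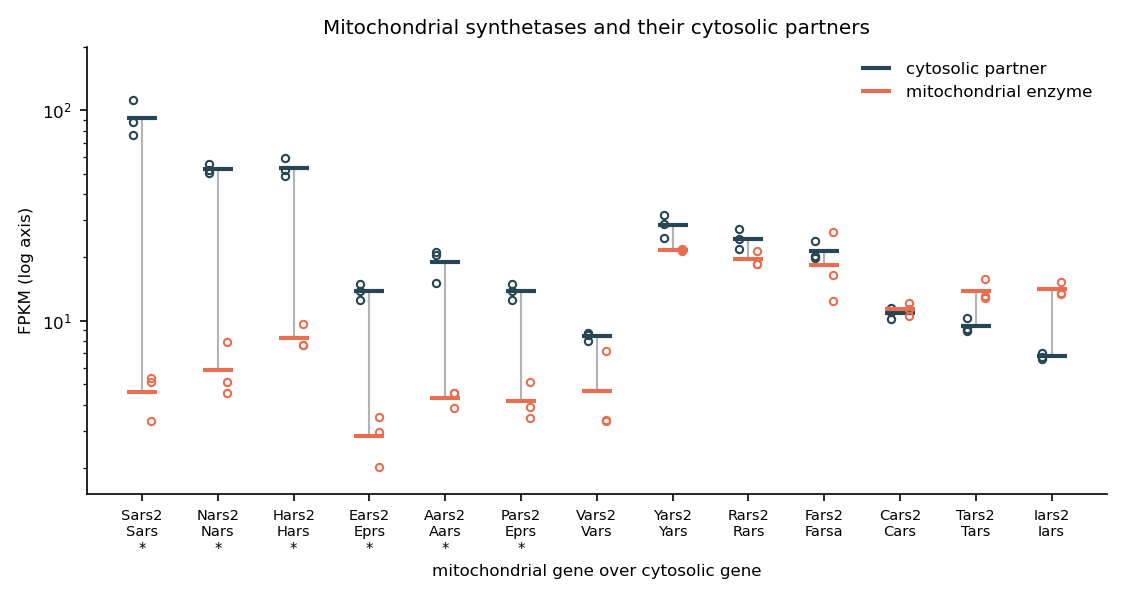
FPKM on a log axis of the cytosolic (dark) and mitochondrial (orange) gene of 13 pairs, with open circles for the 3 libraries and bars for their means; an asterisk marks pairs in which the mitochondrial gene was called lower by more than 1 log2 unit. The gap narrows from left to right and turns in the last 3 pairs, from a ratio of 21.7 for Sars over Sars2 to 0.483 for Iars over Iars2.

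The widest gap was that of the serine enzymes. Sars2 stood at 3.34, 5.37 and 5.10 FPKM against 112, 76.1 and 87.9 for Sars, a ratio of 33.6, 14.2 and 17.2. The asparagine gene Nars2, at 5.12, 4.52 and 7.95 FPKM, gave Nars a ratio of 9.50 ± 2.56. Hars over Hars2, which lie next to each other, had a ratio of 6.55 ± 1.36, with Hars2 at 7.68, 9.64 and 7.64 FPKM. In all 3 pairs the values of the 2 genes were not overlapping. The cytosolic partners are high genes, and 78.1% of all genes were called lower than Sars, 69.2% lower than Nars and 69.0% lower than Hars.

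Smaller gaps were called for alanine and for the 2 partners of Eprs, where 36.6% of all genes were called lower than Aars and 29.9% lower than Eprs. Aars was 4.38 ± 0.386 times Aars2, which stood at 4.52, 3.85 and 4.56 FPKM. Eprs was 5.15 ± 1.61 times Ears2 and 3.43 ± 0.849 times Pars2, the proline enzyme gene, which stood at 3.89, 5.13 and 3.46 FPKM. In such a fit the spread of the reference gene is shared by all genes, so the test borrows more certainty than 3 libraries hold. With each gene's own variance, a setting chosen after seeing the data, 4 of the 6 calls were made. Aars2, Hars2, Nars2 and Sars2 had limma adjusted p of 0.0348, 0.0142, 0.0134 and 0.0147, while Ears2 and Pars2 missed the threshold (adjusted p = 0.0591 and 0.119). The call of Pars2 was also lost without library 1 or library 3 (adjusted p = 0.0655 and 0.081).

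In the other 7 pairs no difference beyond 1 log2 unit was shown. Iars2 was above Iars in 3 of 3 libraries, at 13.5, 15.4 and 13.6 FPKM against 6.77, 6.61 and 7.01, a difference of 0.96 log2 units (SE 0.0972). Tars2 was likewise above Tars in 3 of 3 libraries, at 12.8, 15.9 and 13.1 FPKM against 8.98, 9.15 and 10.4 (0.50 log2 units, SE 0.130). These were the only pairs with the mitochondrial gene higher in every library, and against a null of no difference both were called higher. Against that null Vars2 was called lower than Vars (limma adjusted p = 0.0118) and Yars2 lower than Yars (adjusted p = 0.0488). For cysteine the 2 genes overlapped, with Cars2 at 12.2, 11.4 and 10.6 FPKM and Cars at 11.1, 10.2 and 11.5 FPKM. Farsa over Fars2 was 1.25 ± 0.354, Rars over Rars2 1.26 ± 0.173, Yars over Yars2 1.31 ± 0.181 and Vars over Vars2 2.06 ± 0.763.

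Within the cytosol, Tarsl2, the paralog of Tars, was at 13.1, 10.4 and 11.7 FPKM and Tars at 8.98, 9.15 and 10.4 FPKM. Tarsl2 was higher in 3 of 3 libraries by 0.28 log2 units (SE 0.126) and was not called, where 27.1% of all genes were called higher than Tars and 19.7% lower. Farsb, the beta subunit gene of the phenylalanine enzyme, was at 33.7, 34.2 and 35.4 FPKM, above the alpha subunit gene Farsa at 23.8, 19.96 and 20.3 FPKM. The ratio of Farsb to Farsa was 1.62 ± 0.182 (0.67 log2 units, SE 0.127), not called beyond 1 log2 unit, where 14.1% of all genes were called higher than Farsa and 42.5% lower. Against a null of no difference it was called (limma adjusted p = 0.00211). The protein holds equal numbers of both subunits, as background.

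Lars2, the mitochondrial leucine enzyme gene, was kept apart because it differed so much between libraries. Its values were 420, 58.6 and 294 FPKM, a 7.16-fold range with a coefficient of variation of 71.2%. Library 2 was far below libraries 1 and 3, and even there Lars2 was above every other mitochondrial synthetase gene. The values rested on about 5594, 880 and 6427 fragments, so counting error was at most 3.37%. Lars, its cytosolic partner, stood at 11.6, 11.1 and 16.2 FPKM, and Lars2 was 3.82 log2 units above it (SE 0.257 in the moderated fit), where 19.1% of all genes were called higher than Lars and 25.1% lower. With its own variance Lars2 was called neither against Lars (adjusted p = 0.127) nor against the median gene (adjusted p = 0.108). No other annotated gene overlaps Lars2 (chr9:123366927-123462675, plus strand). The mitochondrial ribosomal RNA genes did not share its order, with mt-Rnr2 at 4432, 5147 and 4153 FPKM and highest in library 2. What sets the Lars2 values apart was not tested.

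Apart from Lars2, the genes had a median coefficient of variation of 11.1% beside 13.8% for all genes tested. That comparison was not matched for level, the medians of the gene means being 14.1 and 10.5 FPKM, so it does not show that the members vary less. Cytosolic genes had a median of 10.2% and mitochondrial ones 13.7%, the latter also being less abundant. The most variable were Vars2, at 7.20, 3.35 and 3.37 FPKM (47.8%), and Fars2, at 26.4, 12.4 and 16.5 FPKM. Both were high in library 1. Their spread exceeded that of 91.8% and 97.4% of the 500 genes nearest in level. Fars2 overlaps Nrn1, an activity-regulated neuronal gene at 142, 137 and 120 FPKM, and Lyrm4, at 13.0, 14.0 and 10.6 FPKM. Neither gene had the order of Fars2. Whether counting used strand is not given, so reads of overlapping genes may be shared. The smallest coefficients of variation were those of Yars2 (1.51%), Farsb (2.50%), Iars (2.96%) and Aimp1 (2.98%). Each was below the estimated counting error of its gene in every library. That error was at least 7.73%, 5.29%, 7.55% and 5.8% in the same order. Values this close therefore do not show that these genes vary less than others.

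Most cytosolic enzymes were lowest in the same library. In 14 of 19 the lowest value was that of library 2, beside 33.2% of all genes tested. In 11 of 19 the highest was that of library 1, beside 4869 of the 13337 genes tested. The median deviation of the 19 from their own means was 0.115, -0.0985 and 0.00518 log2 units in libraries 1, 2 and 3. Over all genes tested these medians were 0.0105, -0.000653 and -0.00637, so the shift was small but not that of the libraries as a whole. Of the 15 mitochondrial genes 6 were lowest in library 2 and 8 were highest in it, where 4349 of the 13337 genes tested were highest. Rescaling each library to a common total put 18 of 19 cytosolic genes lowest in library 2, but that scaling also put 61.0% of all genes lowest there. It moved the median of all genes by -0.15 log2 units in library 2 and by 0.17 in library 3. The totals, 743000, 820000 and 638000 FPKM in libraries 1, 2 and 3, include Bc1 at 124074, 179412 and 0 FPKM. The scaling therefore follows that 1 row in part and is no clean measure of library size. With 1 group there is no test of the pattern in the cytosolic genes, and its cause was not tested.

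**Figure D3:**
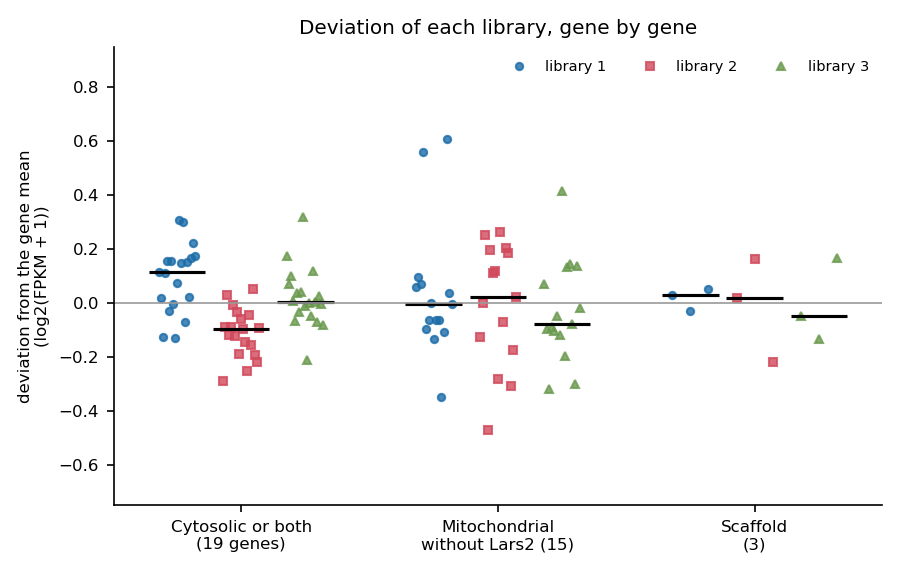
Deviation of log2(FPKM + 1) in each library from the mean of the same gene over the 3 libraries, with 1 point per gene and black lines at medians. Points of library 2 lie mostly below 0 for the 19 cytosolic genes (median -0.0985) and on both sides of 0 for the 15 mitochondrial ones.

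Several members start close to the start of a gene on the opposite strand. Whether the genes point apart was not checked. Hars overlaps Hars2, Ears2 overlaps Ubfd1, Fars2 overlaps Lyrm4 and Aimp1 overlaps Tbck, so reads of these pairs may be shared. Other members overlap a protein-coding gene too: Cars2 Naxd (65.0 ± 1.6 FPKM), Tarsl2 Tm2d3 (38.9 ± 5.31) and Iars2 Rab3gap2 (7.37 ± 2.25). So do Aimp2 with Eif2ak1 (14.0 ± 0.249), Yars with C77080 (3.72 ± 0.369), Aars with Exosc6 (1.51 ± 2.14) and Farsb with Sgpp2 (0.64 ± 0.265). The comparisons of Cars2, Tarsl2 and Iars2 with Cars, Tars and Iars therefore carry the same limit. A protein-coding gene on the opposite strand started within 1000 bases of 10 of the 38 genes (26.3%), beside 10.9% of 21938 protein-coding genes in GENCODE M21. Hars and Hars2 were each other's neighbours, with starts 197 bases apart, yet differed 6.55-fold in level. Rars2 and Orc3, an origin recognition complex gene, start 13 bases apart. Their levels were alike, Rars2 at a mean of 19.6 and Orc3 at 17.6 ± 0.497 FPKM. Fars2 and Lyrm4 start 114 bases apart, with means of 18.4 ± 7.18 and 12.5 ± 1.74 FPKM. Sars2 starts 172 bases from Mrps12, a mitochondrial ribosomal protein gene, which stood at 77.1 ± 13.3 FPKM against 4.60 ± 1.10 for Sars2. Both had their lowest value in library 1. Aimp1 at 60.2 ± 1.79 FPKM starts 226 bases from Tbck at 3.47 ± 0.456 FPKM. Unlike levels were also seen for Yars at 28.5 beside S100pbp at 7.17 FPKM, Kars at 44.6 beside Terf2ip at 16.2, Ears2 at 2.83 beside Ubfd1 at 13.7 and Aimp2 at 33.3 beside Pms2 at 5.31 FPKM.

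Other genes of tRNA charging were read from the same comparison with the median gene, where 26.0% of all genes were higher and 22.3% lower. The eEF1 genes, whose products take charged tRNA to the ribosome or recharge that factor, were all higher, 5 of 5. Eef1a1 stood at 3160, 3172 and 3283 FPKM, Eef1b2 at 299 ± 19.7 and Eef1a2, the neuronal and muscle form, at 271 ± 29.1 FPKM. Eef1a1 has near-identical copies that can share its reads. In the mitochondrion, the matching list had 1 of 6 higher, Tufm, the elongation factor Tu gene, at 40.2, 38.1 and 47.7 FPKM. Tsfm lay at 18.2 ± 0.603 FPKM and Gfm1 at 18.9, 13.4 and 15.7 FPKM.

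Mitochondria make glutaminyl-tRNA by charging it with glutamate through Ears2 and then converting it with an amidotransferase. The genes of that enzyme were Gatc at 18.8 ± 0.636, Gatb at 14.5 ± 3.66 and Qrsl1 at 9.82 ± 0.582 FPKM. Their means were above Ears2 at 2.83 ± 0.744 FPKM, with no overlap in any library. Ears2 ranked 36 of the 38 members and 10907 among all genes above 0, so most of the 13337 genes tested also had means above it. None of the 4 genes of the list, with the formylase gene Mtfmt, was called (limma, also 0 at an unadjusted p under 0.05). For selenocysteine, which is made on its tRNA, Pstk was higher at 40.6, 51.1 and 41.6 FPKM, Sepsecs and Secisbp2 were lower at 2.58 ± 0.197 and 3.08 ± 0.702 FPKM, and Sephs2 (21.6 ± 2.35 FPKM) and Eefsec (8.66 ± 0.396 FPKM) were not called. Sepsecs and Secisbp2 are named because they were called.

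Genes that clear mischarged or stalled tRNA included Dtd1, a D-aminoacyl-tRNA deacylase gene, at 51.3 ± 5.24 FPKM and Aarsd1, an alanyl editing gene, at 33.4 ± 3.39 FPKM. These 2 of 7 were higher, none was lower, and Dtd2 stood at 10.2 ± 1.33 FPKM. In tRNA processing and export 5 of 17 were higher and 2 lower. Pop5 (94.3 ± 6.80 FPKM), Tsen34 (67.7 ± 2.28) and Rtcb, the tRNA ligase gene (55.8 ± 3.88), led the list, followed by Hsd17b10 and Trnt1, which adds the CCA end that synthetases charge. Elac1 and Pop1 were lower. These 4 are named because they were called. In tRNA modification 3 of 24 tested genes were higher, Trmt1 (36.6 ± 9.30 FPKM), Elp3 (28.3 ± 2.00) and Nsun2 (26.7 ± 1.01), and 3 were lower, Adat3, Cdkal1 and Ctu1, again named because they were called. Of the 7 lower calls in all lists, that of Sepsecs alone was kept with each gene's own variance, and those of Cdkal1, Ctu1 and Elac1 were lost without library 2 (limma adjusted p = 0.1, 0.0951 and 0.12). The call of Ctu1 was also lost without library 1 (adjusted p = 0.103) and that of Elac1 without library 3 (adjusted p = 0.152). The call of Nsun2 was lost when any library was left out (limma adjusted p 0.0617, 0.0938 and 0.0693).

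Of the genes of the amino acid response, 4 of 10 tested were higher and none was lower (limma, 1 lower at an unadjusted p under 0.05). Atf4 itself stood at 77.2, 82.2 and 75.6 FPKM. Phgdh and Psat1, of serine synthesis, stood at 66.8, 71.1 and 88.9 FPKM and at 59.3, 62.5 and 71.6 FPKM, and Asns, the asparagine synthetase gene, at 40.5 ± 3.29 FPKM. Astrocytes are known to express Phgdh, as background. Of the stress-induced members, Trib3 and Atf3 were under the level for testing. Trib3 was listed at 0, 0.62 and 0 FPKM and Atf3 at 0, 0.29 and 1.19 FPKM. The 6 tested genes not called ran from Ddit3 at 17.6 ± 3.56 to Chac1 at 3.44 ± 0.95 FPKM. Genes beyond the 3 highest are named because they were called, were not tested or bound the range of those not called. The libraries did not order this list as they did the cytosolic synthetases. Its median deviation was -0.140, 0.0191 and 0.138 log2 units in libraries 1, 2 and 3, lowest in library 1, in which the synthetases were highest.

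**Figure D4:**
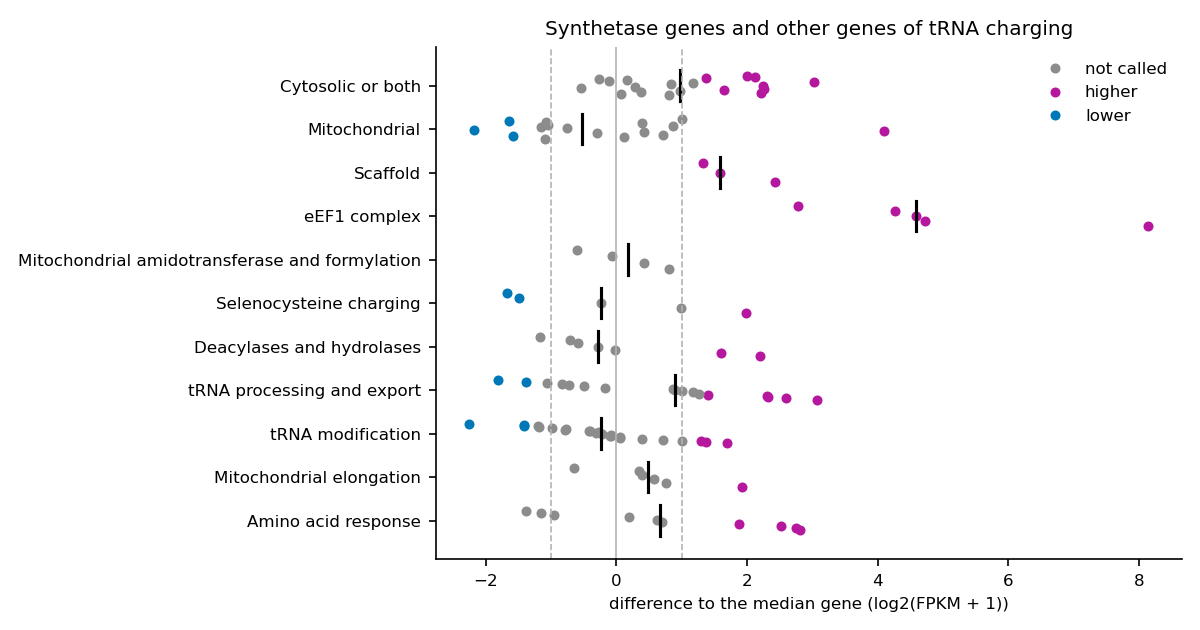
Difference of each gene to the median gene in log2(FPKM + 1), with 1 point per gene, coloured by call, black lines at the median of each list and dashed lines at 1 log2 unit on either side. Median differences were 0.98 for the cytosolic enzymes, -0.52 for the mitochondrial ones with Lars2, 1.59 for the scaffold genes and 4.58 for the eEF1 genes.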

How the data were processed

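The authors deposited 1 table of FPKM values for 3 hippocampus libraries, with gene symbols and Entrez identifiers, per the file headers. Each column was tied to a sample through the number that ends its title. Paired reads of 150 bases came from an Illumina NovaSeq, per the labels' protocols, and Bowtie2 and GRCm38 (mm10) are named in the submitters' processing notes. The counter, annotation, strand setting and program versions are not stated in the sources.

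Members were taken by symbol, and all 38 described were found in RefSeq (GRCm38.p6). FPKM were used as deposited. Differences were formed per library on log2(FPKM + 1), on which low genes differ by less than their true ratio, for genes with a mean of at least 1 FPKM. They were tested with limma 3.58.1 in R 4.3.3 (treat, two-sided, against 1 log2 unit or less, adjusted by Benjamini-Hochberg over all genes of each fit). The test against the median gene was checked on simulated data, with 1 common spread for all genes and no difference for the unchanged ones. That check could not show false calls from unequal spreads or near the margin, and it did not cover the fits to a reference gene. Depth was estimated from genes with 1 annotated transcript (GENCODE M21) of at least 800 bases. Of values worth up to 4 fragments, 93.3%, 92.6% and 91.6% came out whole to 0.15 of a fragment, where evenly spread values would give 30%. The 2 settings behind this, the depth and the bases taken off transcript length, were chosen on the same values. Fragment numbers cover counting error only. The number of genes nearest in level used for spreads was 500.

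Of the 39 rows taken by the rule, 1 is not reported here and enters no count of members, and 1 promoter match is not reported either. The genes named were every member described, the 3 highest of each pathway list and the references, and list genes outside this rule are named as such. Members and lists were chosen with earlier results of these data known. Of the planned steps, protein comparison was not run, since protein sequences were not used here. Python 3.11.15 with pandas 2.3.3 and matplotlib 3.10.9 was used for the rest.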

Additional observations from a re-analysis of the deposited data

How the results depend on the processing

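With every gene above 0 in at least 1 library tested, 21 members were higher than the median gene and 0 lower, in place of 11 and 3, and the pathway lists had 38 higher and 3 lower in place of 21 and 7, because the median gene is then lower. With genes of at least 5 FPKM tested, 6 members were higher and 2 (Iars and Nars2) lower, and the lists had 13 higher. In that setting 2 mitochondrial genes were lower than their partner, fewer pairs being testable. Against a null of no difference 21 members were higher and 11 lower, the lists had 37 higher and 27 lower, 2 mitochondrial genes (Iars2 and Tars2) were higher than their partner, and Farsb was called above Farsa by 0.67 log2 units. With the mean in place of the median as reference, 5 members were lower. With each gene's own variance, added after seeing the data, 9 members were higher and 2 lower, 4 mitochondrial partners were lower and 1 list gene was lower. Leaving out 1 library at a time gave 9 to 11 higher and 3 to 4 lower members, 5 to 6 lower mitochondrial partners, and 4 to 6 lower list genes, the 4 without library 2. A pseudocount of 0.1 changed no call of the 38 members.

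Some genes not called in the reported comparison changed sign with the reference, and none of them was called where its sign changed. With every gene tested the differences were 0.50 for Iars, 0.92 for Tars, 0.77 for Vars, 0.75 for Hars2, 0.28 for Nars2 and 0.0 for Sars2, and among list genes 0.97 for Qrsl1, 0.81 for Eefsec and 1.01 for Dtd2. With genes of at least 5 FPKM they were -0.71 for Cars, -0.41 for Eprs, -0.50 for Lars, -0.63 for Tarsl2, -0.66 for Cars2, -0.08 for Fars2, -0.37 for Iars2, -0.40 for Tars2, -0.37 for Gatb, -0.03 for Tsfm and -0.22 for Gfm1. With the mean as reference they were -0.16 for Cars, -0.07 for Tarsl2 and -0.11 for Cars2. Leaving out 1 library put Dtd2 between -0.09 and 0.06, above 0 without library 3. Levels of the 38 members moved by less than 1 SD under rescaling to a common total, which follows Bc1 in part. They also did without any library, but leaving out 1 of 3 values cannot move a mean by 1 SD, so that result decides nothing. No paired analysis was possible because the samples form 1 group. Depth limits Mars2, Ears2 and Sars2 most, which rested on about 14 to 49 fragments a library.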
